A study of Mus musculus with 8 samples.

Results

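The D-type and E-type cyclins and the inhibitors that restrain their kinases were followed in 3-dimensional organoid cultures of mouse hindstomach epithelium, the glandular part of the stomach. The set was chosen by gene symbol and holds 10 genes of the 56691 rows in the count table: the D cyclin genes Ccnd1, Ccnd2 and Ccnd3, the E cyclin genes Ccne1 and Ccne2, the CIP/KIP inhibitor genes Cdkn1a, Cdkn1b and Cdkn1c, and the INK4 inhibitor genes Cdkn2b and Cdkn2c. All 10 were found and all 10 passed the filter on low counts, as did 13812 rows in all. Bulk RNA was sequenced from 4 YAP5SA cultures (genotype Shh-Cre;YAP5SA) and 4 Ctrl cultures (genotype Shh-Cre), all from embryonic day 18.5 tissue kept 5 days in growth medium and then 7 days in differentiation medium. Every culture thus carried Shh-Cre, a Cre recombinase under control of the gene for the morphogen Sonic hedgehog, which is therefore common to both groups. YAP5SA is a form of the Hippo pathway coactivator YAP that lacks its inhibitory phosphorylation sites. No label ties a culture to an embryo or litter, and p-values then measure only the spread between these samples, which may be technical.

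Passage of a cell from G1 into S phase is driven by D cyclins bound to CDK4 or CDK6 and by E cyclins bound to CDK2, which phosphorylate the retinoblastoma protein and free E2F factors to switch on S-phase genes. The INK4 proteins p15 (Cdkn2b) and p18 (Cdkn2c) bind CDK4 and CDK6, whereas the CIP/KIP proteins p21 (Cdkn1a), p27 (Cdkn1b) and p57 (Cdkn1c) bind cyclin-CDK complexes and chiefly block CDK2. In many epithelia p21, p27 and p57 accumulate as cells leave the cycle and differentiate. Transcript counts do not show protein levels, which for several of these genes are set largely by ubiquitin-dependent turnover.

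Total counts were 17387372 to 25841256 per library. All 12 YAP/TEAD target genes listed for a check of the genotype rose in YAP5SA, where 33.1% of all genes tested were higher. Their median log2 fold change was 1.99. The list was chosen with earlier results of these data known, so it is not an independent check. The groups also differed in sex-linked transcripts: Xist had 0 to 8 counts in YAP5SA and 8436 to 12237 in Ctrl, and the Y-linked Kdm5d, Uty, Ddx3y and Eif2s3y had 880 to 3854 counts in every YAP5SA library and 0 in every Ctrl library. Genotype and the sex of the source can therefore not be told apart in any comparison. The epithelial genes Epcam, Cdh1 and Krt8 (CPM, the count scaled by library size) were abundant in both groups, at 592 ± 24.0, 1249 ± 101 and 2388 ± 382 CPM in YAP5SA and 296 ± 26.4, 2150 ± 87.5 and 5368 ± 250 CPM in Ctrl (SD, n = 4 each). Of 13 gastric epithelial markers 1 rose, 11 fell and 1 was not called, where 33.1% of all genes tested were higher and 31.3% lower. Summed CPM of 10 mesenchymal markers was 0.853 to 1.19 in YAP5SA and 0.168 to 0.751 in Ctrl, with Col1a2 and Lum at 0 in every library, and that of 6 endothelial markers was 0.213 to 0.73 and 0.67 to 1.8. Summed CPM of 6 erythroid markers was 0 to 0.182 in YAP5SA and 0 to 0.447 in Ctrl (Hba-a2 and Hbb-bt at 0), and that of 7 neural and glial markers was 2.18 to 3.33 and 4.92 to 6.15 (Elavl4 and Sox10 at 0). The 7 immune markers summed to 67.5 to 73.5 CPM in YAP5SA and 8.57 to 18.2 in Ctrl, nearly all of it Csf1r and Cd68, with Adgre1 at 0. The 4 mesothelial markers summed to 2978 to 3287 CPM in YAP5SA and 3651 to 4310 in Ctrl, nearly all of it Msln, which was called lower, while Upk3b (log2 fold change 2.11) and Wt1 (0 counts in Ctrl) were called higher. The part of the immune and mesothelial genes in the results was not tested.

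The comparison asked how active YAP affects the genes that gate entry into S phase once organoids are under differentiation conditions. Of the 10 genes, 6 were higher in YAP5SA, 1 was lower and 3 were not called (edgeR quasi-likelihood test, Benjamini-Hochberg adjusted p under 0.05 over all genes tested). Of all genes tested, 64.5% were called, which splits into 33.1% higher and 31.3% lower, so that 7 calls of 10 is a share near the background. With scaling by library size alone, 5742 genes were called higher and 3201 lower, against 4577 and 4330 with TMM scaling, and the median log2 fold change of all genes moved to 0.19 from 0.02. The median over the 10 genes was 0.63. The 4 YAP5SA libraries all lay above the 4 Ctrl libraries for 6 genes and all below for 1, where 58.7% of all tested genes had groups that did not overlap (30.4% above and 28.3% below). The largest rise was in the inhibitor gene Cdkn1c and the only fall in the inhibitor gene Cdkn1a, while the D cyclin genes with the most counts, Ccnd1 and Ccnd2, were not called.

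**Figure D1:**
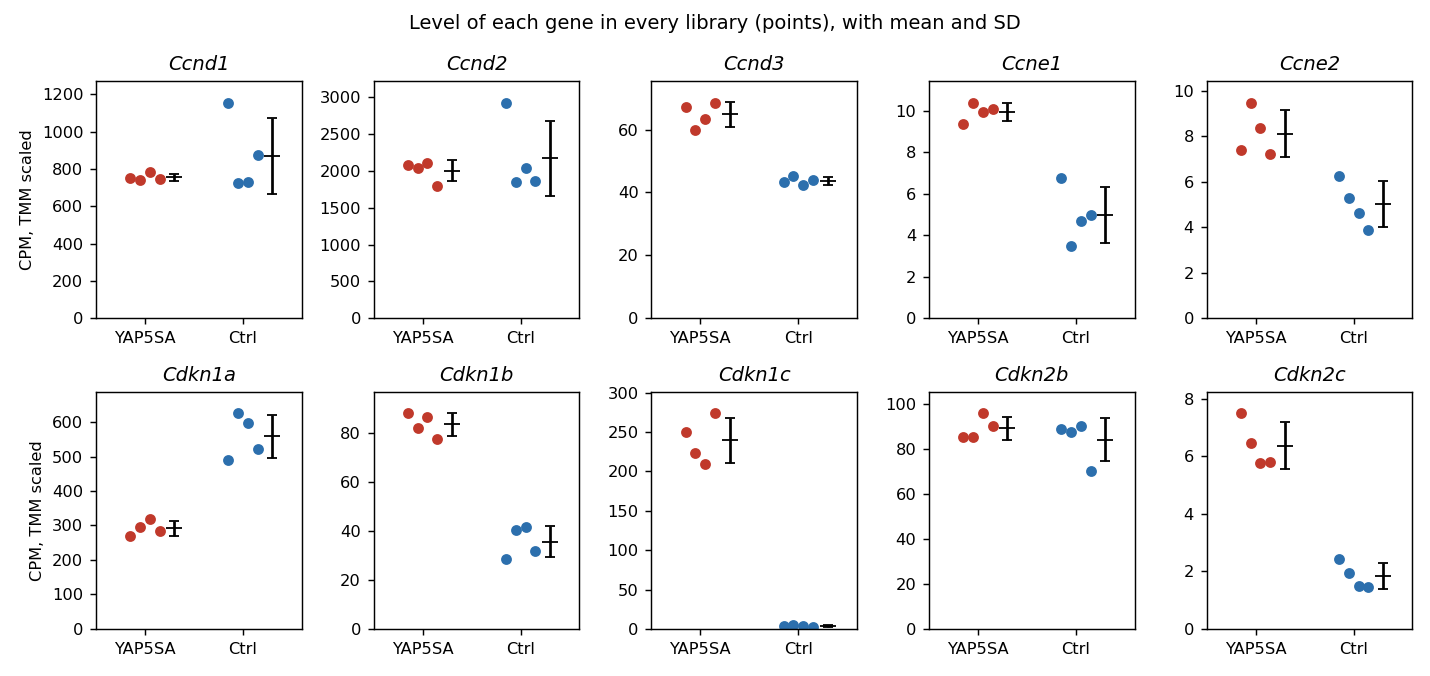
CPM (TMM scaled, linear axes from 0) of each gene in the 4 YAP5SA libraries (red, left) and the 4 Ctrl libraries (blue, right), with the mean and SD beside the points. Cdkn1c lay between 210 and 274 CPM in YAP5SA and between 2.23 and 4.92 in Ctrl, Cdkn1a was lower in every YAP5SA library, and Ccnd1, Ccnd2 and Cdkn2b overlapped between the groups.

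Among the D cyclins, which couple growth factor signals to CDK4 and CDK6, only Ccnd3 was called. Ccnd3 stood at 67.4, 59.8, 63.5 and 68.6 CPM in YAP5SA replicates 1 to 4, against 43.3, 45.3, 42.4 and 44.0 CPM in Ctrl replicates 1 to 4. The groups did not overlap, and the difference was 0.57 on the log2 scale (SE 0.07, adjusted p = 1.39e-05), a 1.48-fold higher level. Leaving out each library in turn gave 0.53 to 0.60, called each time.

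Ccnd1 encodes the D cyclin best known as a target of mitogen and Wnt signals. Its level was 753, 739, 784 and 747 CPM in YAP5SA, against 1156, 724, 730 and 874 CPM in Ctrl. The YAP5SA values fell within the Ctrl range, and Ccnd1 was not called, at -0.20 on the log2 scale (SE 0.12, adjusted p = 0.164). Leaving out Ctrl replicate 2 gave -0.30, which was called (adjusted p = 0.0404), and the value was -0.064 without Ctrl replicate 1 (adjusted p = 0.483), so the value turns on which Ctrl library is counted.

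Ccnd2, which encodes cyclin D2, had 2080, 2032, 2103 and 1796 CPM in YAP5SA and 2926, 1846, 2038 and 1866 CPM in Ctrl. The groups overlapped, with a log2 fold change of -0.11 (SE 0.13, adjusted p = 0.450). Without Ctrl replicate 1 the value was 0.037 (adjusted p = 0.688). The spread between Ctrl libraries was wide for both genes, with an SD of 202 CPM for Ccnd1 and 512 CPM for Ccnd2, against 19.5 and 141 CPM in YAP5SA.

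Levels of different genes were compared per kilobase of exon, with exon lengths from GENCODE M21. A length is the union of all annotated exons of a gene, which can exceed the transcript expressed. The annotation behind the counts is not given, so ranks and shares between genes are approximate. On this scale Ccnd2 averaged 213 ± 15 CPM per kb in YAP5SA and 231 ± 54.4 in Ctrl, Ccnd1 160 ± 4.13 and 185 ± 43.0, and Ccnd3 7.39 ± 0.452 and 4.99 ± 0.139 (SD, n = 4 each). Ccnd2 ranked 212 in YAP5SA and 176 in Ctrl among 13347 tested genes with a length. Ccnd2 made up 55.9% ± 1.65 of the summed D cyclin level in YAP5SA and 54.8% ± 2.74 in Ctrl, and Ccnd1 42.2% ± 1.5 and 44.0% ± 2.73. Ccnd3 held 1.95% ± 0.18 in YAP5SA and 1.23% ± 0.245 in Ctrl. The gene that was called was thus the least abundant of the family, and the summed D cyclin level, 357 to 397 CPM per kb in YAP5SA and 355 to 561 in Ctrl, overlapped.

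The E cyclins act after the D cyclins, and their genes are themselves E2F targets. Ccne1 was at 9.36, 10.4, 9.96 and 10.1 CPM in YAP5SA and at 6.77, 3.49, 4.71 and 4.97 CPM in Ctrl. All YAP5SA libraries lay above all Ctrl libraries, with a log2 fold change of 0.996 (SE 0.18, adjusted p = 0.000245), or 1.99-fold. Ccne2 had 7.40, 9.47, 8.37 and 7.21 CPM in YAP5SA against 6.26, 5.27, 4.63 and 3.85 CPM in Ctrl. Its groups were separate too, with a log2 fold change of 0.70 (SE 0.18, adjusted p = 0.00332). Both genes rested on modest depth, 187 to 221 and 157 to 182 counts per YAP5SA library and 59 to 120 and 69 to 111 per Ctrl library. Summed per kilobase, the E cyclins stood at 6.06 ± 0.426 CPM per kb in YAP5SA and 3.31 ± 0.695 in Ctrl, far under the D cyclins in both groups.

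Exons of 3 of the cyclin genes overlap exons of a coding gene on the opposite strand in GENCODE M21 on GRCm38, and the strand setting of the counting is not given in the sources used here. Ccnd1 shares up to 818 bases with LTO1, which was at 26.3 ± 1.79 CPM in YAP5SA and 35.5 ± 4.32 in Ctrl and was called lower (log2 fold change -0.43, adjusted p = 0.00218). Ccnd3 shares up to 361 bases with Bysl, at 13.3 ± 2.75 and 14.9 ± 2.59 CPM (log2 fold change -0.16, adjusted p = 0.400). Ccne2 shares up to 474 bases with Ints8, at 43.3 ± 2.72 and 41.4 ± 3.6 CPM (log2 fold change 0.06, adjusted p = 0.540), so the Ccne2 counts are uncertain to the extent that reads could be assigned to either gene. Bysl and Ints8 were not called. Cdkn1a, Cdkn1c and Ccnd2 overlap only antisense or unclassified transcripts, with 12 and 40 counts over all libraries for those of Ccnd2 and 4 for that of Cdkn1c.

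Sequence upstream of a transcription start was taken from RefSeq (GRCm38.p6), which held a window for 6 of the 10 genes. No window was available for Ccnd1, Ccnd2, Ccne2 or Cdkn1c, so the upstream sequence of these genes was not searched. For genes with 2 starts the window richer in G and C is used, which is the case for Ccnd3, Cdkn1a and Cdkn2c. The available windows of called cyclin genes are shown because Ccnd3 and Ccne1 rose in the same libraries. Capitals mark the letters CCAAT (the CCAAT box), GGGCGG (the GC box bound by SP factors) and GGAATG (the core bound by TEAD factors, through which YAP acts) on either strand, and no matches overlap. The 250 bases are printed 5′ to 3′ on the strand of the gene, chr17:47593217-47593466 (plus strand) for Ccnd3 and chr7:38107491-38107740 (minus strand) for Ccne1.
Ccnd3: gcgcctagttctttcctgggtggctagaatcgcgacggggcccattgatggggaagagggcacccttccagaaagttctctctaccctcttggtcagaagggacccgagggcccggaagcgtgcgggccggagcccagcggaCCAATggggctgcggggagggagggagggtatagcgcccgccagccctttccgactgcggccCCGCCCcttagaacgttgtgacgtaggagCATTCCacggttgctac
Ccne1: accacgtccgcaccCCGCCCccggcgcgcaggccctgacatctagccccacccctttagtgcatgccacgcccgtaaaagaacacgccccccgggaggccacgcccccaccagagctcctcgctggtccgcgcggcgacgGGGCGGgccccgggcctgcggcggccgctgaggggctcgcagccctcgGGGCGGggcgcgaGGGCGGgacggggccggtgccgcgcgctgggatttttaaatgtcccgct

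The Ccnd3 window held a CCAAT box starting 108 bases upstream, a GC box at 46 and a TEAD core at 17, read on the opposite strand for the GC box and the TEAD core. The Ccne1 window held 4 GC boxes and neither of the other motifs. Of 32851 RefSeq windows of the same length, 33.8% held a CCAAT box, 32.7% a GC box and 12.6% a TEAD core. The E2F letters TTTGGCGC, TTTCCCGC, TTTCGCGC and TTTGCCGC were searched as well, on both strands, and 1.86% of all windows held at least 1 of them. None of the 6 windows did, which says only that these letters are not in these 250 bases.

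All 3 CIP/KIP inhibitor genes were called, Cdkn1b and Cdkn1c as higher and Cdkn1a as lower. Cdkn1c encodes p57, an inhibitor whose gene is imprinted and expressed from the maternal chromosome, and which is linked to cell cycle exit in development. It stood at 250, 224, 210 and 274 CPM in YAP5SA, against 4.12, 4.92, 4.25 and 2.23 CPM in Ctrl. The counts behind this were 5495, 4302, 3937 and 6000 in YAP5SA and 73, 83, 102 and 40 in Ctrl, so the gene was low in Ctrl and not absent. The groups lay far apart, at a log2 fold change of 5.94 (SE 0.17, adjusted p = 4.11e-12), or 61.4-fold, and with 5.74 to 6.04 when each library was left out. By size of log2 fold change Cdkn1c ranked 84 from the top of the 13812 genes tested.

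Cdkn1a encodes p21, the inhibitor best known as a p53 target. It had 268, 296, 319 and 283 CPM in YAP5SA against 491, 625, 598 and 520 CPM in Ctrl. Every YAP5SA library was under every Ctrl library, and Cdkn1a fell by 0.94 on the log2 scale (SE 0.09, adjusted p = 5.96e-07), which makes its level 1.92-fold higher in Ctrl. The value was -1.02 to -0.90 over the fits without 1 library. In bulk RNA, fewer cells that express a gene and less RNA per cell cannot be told apart.

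Cdkn1b encodes p27, whose protein is removed through SKP2 as cells enter S phase. Its level was 88.2, 82.4, 86.9 and 77.9 CPM in YAP5SA and 28.8, 40.3, 41.8 and 31.8 CPM in Ctrl. The groups did not overlap, and the log2 fold change was 1.23 (SE 0.11, adjusted p = 3.68e-07), or 2.35-fold. Cdkn1b and Cdkn1c thus rose in the libraries in which Cdkn1a fell.

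The INK4 genes differed from each other. Cdkn2c, which encodes p18, had 7.49, 6.45, 5.76 and 5.79 CPM in YAP5SA and 2.43, 1.95, 1.5 and 1.45 CPM in Ctrl, with 108 to 165 counts per YAP5SA library and 26 to 43 per Ctrl library. All YAP5SA values lay above all Ctrl values (log2 fold change 1.80, SE 0.21, adjusted p = 4.86e-06). Cdkn2b, which encodes the TGF-beta-inducible p15, had 85.3, 85.0, 95.8 and 90.2 CPM in YAP5SA and 88.8, 87.4, 90.2 and 70.0 CPM in Ctrl. Its groups overlapped, and its log2 fold change was 0.08 (SE 0.09, adjusted p = 0.427), or -0.017 without Ctrl replicate 4 and 0.26, called (adjusted p = 0.0215), with scaling by library size alone.

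**Figure D2:**
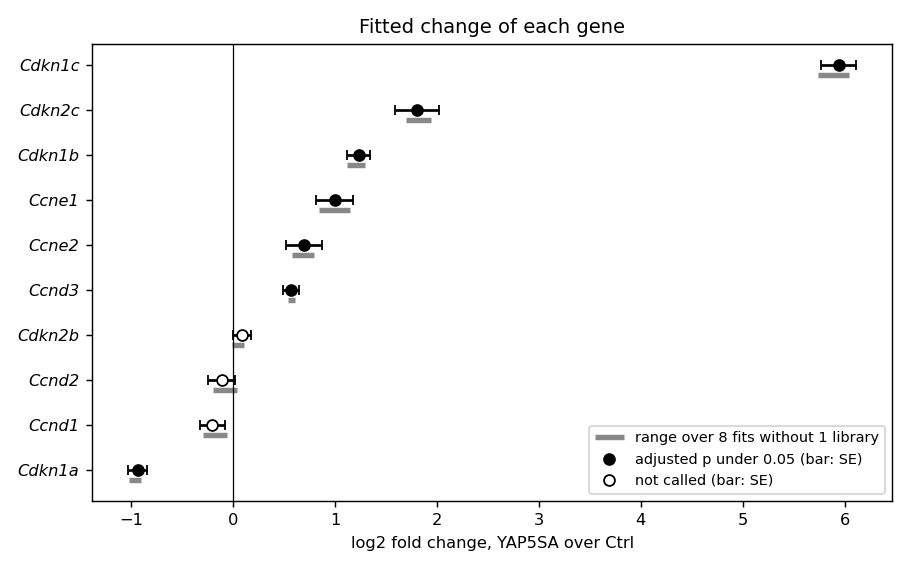
Log2 fold change of each gene, YAP5SA over Ctrl, with its SE (thin bar) and the range over the 8 fits that each leave out 1 library (grey bar). Filled points were called; Cdkn1c is at 5.94 and Cdkn1a at -0.94, and the grey bars of Ccnd2 and Cdkn2b cross 0.

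Per kilobase of exon, the make-up of the 5 inhibitor genes of the set differed between the groups. Cdkn1c averaged 117 ± 13.9 CPM per kb in YAP5SA and 1.9 ± 0.565 in Ctrl, Cdkn1a 82.1 ± 6.11 and 157 ± 17.8, Cdkn2b 64.1 ± 3.63 and 60.5 ± 6.79, Cdkn1b 18.4 ± 1.03 and 7.84 ± 1.4, and Cdkn2c 2.37 ± 0.303 and 0.683 ± 0.169. In YAP5SA the order was Cdkn1c, Cdkn1a, Cdkn2b, Cdkn1b, Cdkn2c, and no neighbours in it overlapped between libraries. In Ctrl the order was Cdkn1a, Cdkn2b, Cdkn1b, Cdkn1c, Cdkn2c, again with no overlap between neighbours. Cdkn1a held 28.9% ± 2.54 of the summed level of these 5 genes in YAP5SA and 68.9% ± 2.55 in Ctrl, and Cdkn1c held 41.2% ± 3.87 and 0.825% ± 0.201. Cdkn2b held 22.6% ± 1.22 in YAP5SA and 26.6% ± 2.57 in Ctrl. The sum itself was 275 to 298 CPM per kb in YAP5SA and 206 to 251 in Ctrl, although Cdkn1a was lower in every YAP5SA library. This separation rests on the length scaling, with 2039 bases of exon for Cdkn1c and 3553 for Cdkn1a. In CPM without lengths, the sums of the groups overlapped. On that scale Cdkn1a averaged 292 in YAP5SA and 559 in Ctrl, and Cdkn1c 239 and 3.88. In every YAP5SA library Cdkn1a then stood above Cdkn1c, so the top place of Cdkn1c in the order also rests on the lengths. Within the CIP/KIP genes alone, the Cdkn1c share was 48.6% to 58.1% in YAP5SA and 0.709% to 1.38% in Ctrl.

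**Figure D3:**
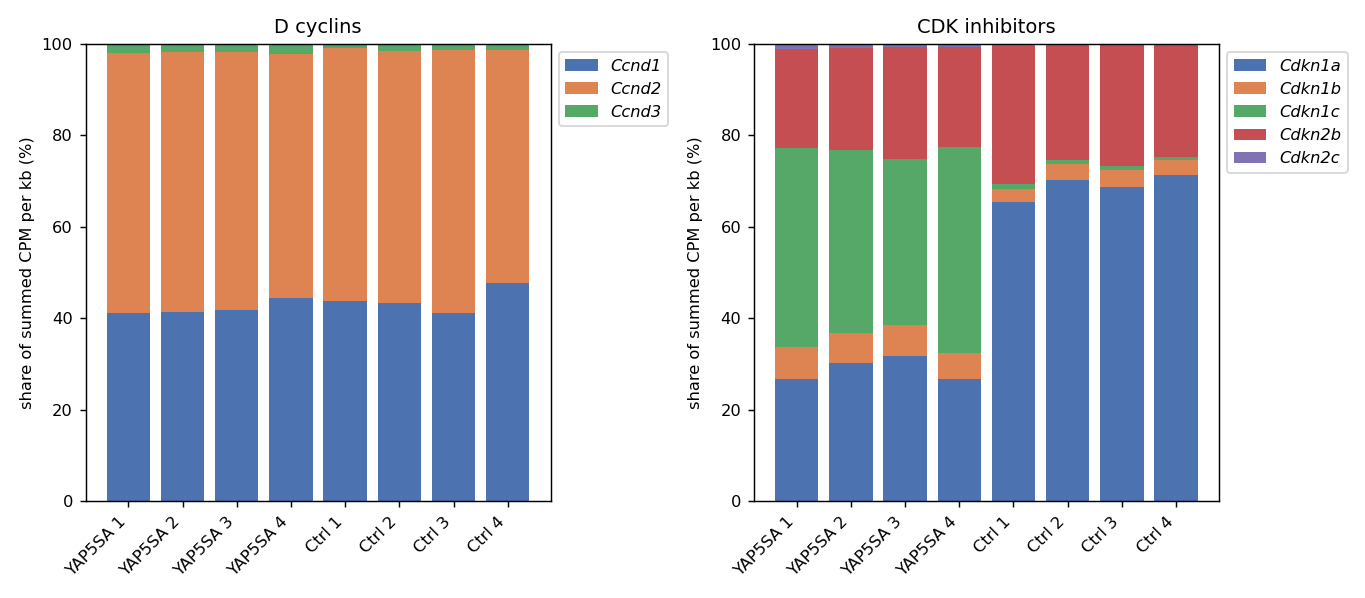
Share of each gene in the summed level per kilobase of exon (percent) in every library, for the D cyclins (left) and the 5 CDK inhibitors (right), with YAP5SA libraries before Ctrl libraries. The D cyclin make-up is similar in all 8 libraries, with Ccnd2 at 51.0% to 57.5%. Cdkn1c takes 36.4% to 45% of the summed level of these 5 inhibitor genes in YAP5SA and under 1% in Ctrl. Cdkn2a, Cdkn2d and Cdkn3 are not in the sum.

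The available upstream windows of called inhibitor genes are shown in the same way, because Cdkn1b and Cdkn2c rose while Cdkn1a fell. Cdkn1c, the inhibitor gene with the largest rise, had no window and was not searched. They lie at chr17:29093519-29093768 (plus strand) for Cdkn1a, chr6:134920151-134920400 (plus strand) for Cdkn1b and chr4:109666757-109667006 (minus strand) for Cdkn2c.
Cdkn1a: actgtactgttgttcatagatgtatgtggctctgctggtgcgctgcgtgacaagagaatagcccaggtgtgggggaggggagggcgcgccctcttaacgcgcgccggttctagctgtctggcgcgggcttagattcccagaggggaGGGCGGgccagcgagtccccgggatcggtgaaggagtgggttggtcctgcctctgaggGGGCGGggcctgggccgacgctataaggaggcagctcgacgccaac
Cdkn1b: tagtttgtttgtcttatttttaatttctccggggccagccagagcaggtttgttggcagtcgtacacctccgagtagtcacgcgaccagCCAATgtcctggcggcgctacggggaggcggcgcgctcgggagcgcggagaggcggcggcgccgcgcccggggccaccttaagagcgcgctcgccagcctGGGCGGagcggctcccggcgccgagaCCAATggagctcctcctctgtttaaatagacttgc
Cdkn2c: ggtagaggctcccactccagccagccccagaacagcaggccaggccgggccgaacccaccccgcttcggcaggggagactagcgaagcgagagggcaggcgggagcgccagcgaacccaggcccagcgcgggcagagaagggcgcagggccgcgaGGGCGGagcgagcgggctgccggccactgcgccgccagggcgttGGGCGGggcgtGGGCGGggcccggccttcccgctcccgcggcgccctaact

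Cdkn1b held 2 CCAAT boxes, starting 161 and 35 bases upstream, and a GC box at 61. The Cdkn1a window held 2 GC boxes and the Cdkn2c window 3, with no CCAAT box and no TEAD core in either. The TEAD core occurred in the Ccnd3 window and in none of the other 5 windows, and all 5 windows printed held at least 1 GC box, the gene that fell included. The Cdkn2b window, which held none of these motifs, belongs to a gene that was not called.

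Within Ctrl, the libraries differed in the balance of these genes. Replicate 1 was the highest of the 4 Ctrl libraries for 5 of the 10 genes, Ccnd1, Ccnd2, Ccne1, Ccne2 and Cdkn2c. It was the lowest for the inhibitors Cdkn1a and Cdkn1b. It also had the highest summed level of 24 S-phase genes, 422 CPM against 319 to 378 in the other Ctrl libraries, and of 14 mitotic genes, 162 CPM against 103 to 143. Ctrl replicate 4 lay at the other end, highest for 0 of the 10 genes and lowest for 4, Ccne2, Cdkn1c, Cdkn2b and Cdkn2c. Both of its sums were the lowest, at 319 and 103 CPM. No YAP5SA library was the highest of its group for more than 4 of the 10 genes. All 4 YAP5SA libraries were higher than Ctrl replicate 1 in both sums, at 556 to 578 CPM for the S-phase genes and 201 to 248 CPM for the mitotic genes. Without Ctrl replicate 1 the same 7 genes were called.

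The genes whose levels over the 8 libraries were most like those of Cdkn1c and Cdkn1a were sought among 9929 tested genes (mean log2 CPM 2 or more, predicted genes left out), by the root mean square difference of log2 CPM after centring each gene. Closest to Cdkn1c were Plscr2 (difference 0.37), Cald1 (0.37), which encodes the actin-binding caldesmon, and Mmp14 (0.46), which encodes a membrane-bound matrix protease. Plscr2 was at 211 ± 19.4 CPM in YAP5SA and 4.86 ± 0.951 in Ctrl. Closest to Cdkn1a were Rassf3 (0.05), Krcc1 (0.05) and Hectd3 (0.05), with Rassf3 at 73.8 ± 2.64 CPM in YAP5SA and 141 ± 13.4 in Ctrl. Libraries of 1 group share their genotype, so this measure is low for any gene with a similar difference between the groups.

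Of 7 genes for CDKs and the CDK-activating kinase, 4 rose, 1 fell and 2 were not called, beside 33.1% higher and 31.3% lower among all genes tested. These shares are also the background for the counts of every list that follows. Mnat1, an assembly factor of the CDK-activating kinase, rose by 2.15 (SE 0.11), Cdk1, the mitotic kinase, by 1.83 (SE 0.16) and Cdk7, the activating kinase itself, by 0.53 (SE 0.09) on the log2 scale. Cdk4, the main D cyclin partner, had a log2 fold change of 0.56 (SE 0.10), Cdk6 one of 0.13 (adjusted p = 0.178) and Cdk2, the E cyclin partner, one of -0.35 (adjusted p = 0.0234). The Cdk2 call ended without Ctrl replicate 2 or without YAP5SA replicate 1, 2 or 3, and with scaling by library size. These last 3 kinases and other genes outside the 3 of each list with the smallest p are named after their values were seen.

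Downstream of the kinases, 13 RB family, E2F and DP genes went both ways, with 5 higher, 3 lower and 5 not called, and a median log2 fold change of 0.28. E2f1 rose by 2.10 (SE 0.12), E2f5 by 1.0 (SE 0.10) and the DNA-binding partner gene Tfdp1 by 0.69 (SE 0.08). Rbl2, which encodes the p130 protein of resting cells, fell by 0.59 and Tfdp2 fell by 0.76 on the log2 scale, while Rb1 was at -0.12 (adjusted p = 0.343). Of 24 S-phase genes, 14 rose, 1 fell and 9 were not called, with a median of 0.68. The share called in either direction is near the 64.5% of all genes tested, which splits into 33.1% higher and 31.3% lower. Geminin (Gmnn), which blocks relicensing of origins, rose by 0.85 (SE 0.11), and the ribonucleotide reductase subunit genes Rrm1 and Rrm2 by 1.77 (SE 0.12) and 1.49 (SE 0.20), while Tyms fell by 0.57 (SE 0.18). The number lower was 3 without Ctrl replicate 4, 2 with DESeq2 or no filter on low counts and 0 with library size scaling. Among A, B and F cyclins and the APC inhibitor EMI1 (Fbxo5), 4 of 5 tested genes rose, with Ccna2 at 1.22 (SE 0.19), Ccnb1 at 1.34 (SE 0.22) and Ccnb2 at 1.26 (SE 0.24). Of 14 mitotic genes 12 rose, 1 fell and 1 was not called, with a median of 1.08.

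The other CDK inhibitor genes rose, 3 of 3, where 33.1% of all genes tested were higher. Cdkn2a, whose locus gives both p16 and p19ARF and lies beside Cdkn2b, was at 59.9 ± 2.76 CPM in YAP5SA and 26.9 ± 3.97 in Ctrl (log2 fold change 1.15, SE 0.10, adjusted p = 3.08e-07). The p19 INK4 gene Cdkn2d was at 1.5 (SE 0.20) and the CDK phosphatase gene Cdkn3 at 1.09 (SE 0.25). Among 5 CDC25 and WEE1 family genes 3 rose and 1 fell. Cdc25a, the phosphatase that activates CDK2, fell by 1.12 (SE 0.11), while Cdc25c rose by 1.99 (SE 0.38) and the inhibitory kinase gene Wee1 by 0.59 (SE 0.18). Of 17 tested genes that act in turnover of cyclins and inhibitors, 7 rose, 3 fell and 7 were not called, with a median of 0.12. Cks2 rose by 1.05 (SE 0.13) and Dtl, a receptor of the ubiquitin ligase for p21, by 1.64 (SE 0.26), while Fbxo4 fell by 0.74 (SE 0.11). Skp2, the receptor for p27, was at 1.13 (SE 0.22). DESeq2, and the fit without Ctrl replicate 2, called 5 of these genes lower in place of 3.

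**Figure D4:**
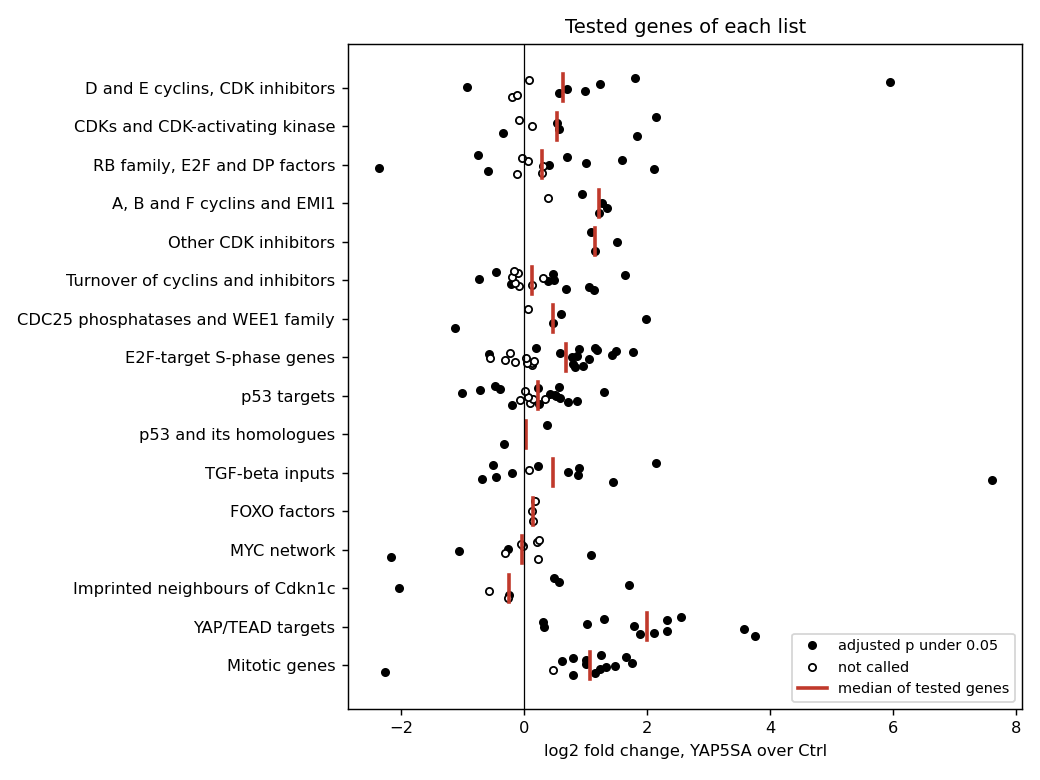
Log2 fold change, YAP5SA over Ctrl, of the tested genes of each list, with called genes filled, others open and the median as a red line. The 10 cyclin and inhibitor genes spread from -0.94 to 5.94 with a median of 0.63, and mitotic genes have a median of 1.08 with Plk1 at -2.27.

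Cdkn1a is a p53 target, and of 21 others 10 rose, 5 fell and 6 were not called, with a median of 0.23 and a share called near the 64.5% of all genes tested. The antiproliferative gene Btg2 was at 286 ± 13.2 CPM in YAP5SA and 575 ± 43.8 in Ctrl (log2 fold change -1.01, SE 0.07), close to the change of Cdkn1a. In the other direction went Plk2 (1.29, SE 0.11) and Perp (0.57, SE 0.08), and Mdm2, the p53 ubiquitin ligase, was at -0.20 (adjusted p = 0.0387). The count of lower genes was 2 to 3 without Ctrl replicate 1 or without YAP5SA replicate 1, 2 or 4, and 2 with upper quartile or library size scaling. Trp53 itself was at -0.33 (adjusted p = 0.0168), and its call ended without YAP5SA replicate 2 and with library size scaling. Mdm4 was at 0.37 (adjusted p = 0.00702), and Trp63 and Trp73 had 1 and 2 counts in all.

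TGF-beta is known to induce Cdkn2b and Cdkn1a. Of 12 genes of its pathway 7 rose, 4 fell and 1 was not called, with a median of 0.47. The ligand gene Tgfb2 was at 52.2 ± 2.2 CPM in YAP5SA and 0.27 ± 0.177 in Ctrl, Tgfb1 rose by 1.44 (SE 0.14) and the receptor gene Tgfbr2 by 0.87 (SE 0.07). The 4 genes that fell were Tgfb3 (-0.69), the receptor gene Tgfbr1 (-0.45), Ski (-0.51) and Smad2 (-0.20). Cdkn2b was not called and Cdkn1a fell, and a link of either to this pathway was not tested. FOXO factors, which induce Cdkn1b in other settings, were not called, with Foxo1 at 0.14 (adjusted p = 0.166), Foxo3 at 0.13 (adjusted p = 0.215) and Foxo4 at 0.18 (adjusted p = 0.210). With library size scaling all 3 were called higher, at 0.32, 0.31 and 0.36, and Foxo4 was called at 0.27 without YAP5SA replicate 4. In the MYC network 1 of 10 tested genes rose and 3 fell, with Mycn at -2.17 (SE 0.24), Mxd1 at -1.06 (SE 0.20) and Mycl at 1.08 (SE 0.20), while Myc, which represses Cdkn1a and Cdkn2b in other settings, was at 0.22 (adjusted p = 0.0904). The count of higher genes in this list was 2 or 3 without any 1 of the Ctrl libraries or without YAP5SA replicate 4, and 4 with upper quartile or library size scaling.

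Cdkn1c lies in an imprinted domain of chromosome 7, so its neighbours were listed. Of 7 genes, 3 rose, 2 fell and 2 were not called, with a median of -0.25. Cd81 was at 980 ± 46.8 CPM in YAP5SA and 301 ± 13.6 in Ctrl (log2 fold change 1.70, SE 0.07), and Nap1l4 rose by 0.48 (SE 0.07). Slc22a18, imprinted in the same direction as Cdkn1c, fell by 2.03 (SE 0.12), and Phlda2, likewise expressed from the maternal chromosome, was at -0.57 (adjusted p = 0.0723). The paternal noncoding RNA Kcnq1ot1, whose transcription silences the domain, was at 3.65 ± 0.287 CPM in YAP5SA and 4.42 ± 1.07 in Ctrl (log2 fold change -0.27, adjusted p = 0.263). The other lower gene, Kcnq1, was at -0.25 (adjusted p = 0.0446) and was not called with upper quartile or library size scaling, with no filter, or without Ctrl replicate 3 or without YAP5SA replicate 2 or 3. No neighbour showed a rise of the size seen for Cdkn1c.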

How the data were processed

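Libraries were made with a VAHTS Universal V8 kit from total RNA of 8 organoid cultures, and both ends of the fragments were read, per the labels' protocols. The authors deposited raw read counts per gene, with no normalization. The submitters' processing notes name HISAT2 2.0.1, HTSeq 0.6.1, cutadapt and the mm9 genome build. Annotation and strand setting: not given in the sources used here. Groups and replicate numbers came from sample titles. The 10 genes and the other lists were chosen with earlier results of these data known. In R 4.3.3, edgeR 4.0.16 was used with filterByExpr (minimum count 10, minimum total 15), TMM scaling, and a quasi-likelihood F test of YAP5SA against Ctrl with no covariate. It was tested on simulated data. P-values are two-sided and adjusted over 13812 genes, with 0.05 as the threshold. SE was taken as the size of the log2 change over the root of its F statistic. CPM means and SDs are over 4 libraries with TMM scaling, with factors of 1.04 to 1.08 in YAP5SA and 0.92 to 0.97 in Ctrl. Replicates of a group differed by more than sampling noise (chi-square per degree of freedom 4.69 to 34.9). Named genes are all 10, up to 3 genes of each other list with the smallest p, and those with the most similar profiles. Alternatives were DESeq2 1.42.0, limma-voom (limma 3.58.1), 3 other scalings, 2 other filters, the replicate number as a block, and leaving out each library.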

Additional observations from a re-analysis of the deposited data

Results flagged for a closer look

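Among 122 checks of a group of 4 libraries for 1 library far from the rest, 2 were positive, where chance alone gives about 1 in 20. Cdkn2b was at 70.0 CPM in Ctrl replicate 4, against 87.4 to 90.2 CPM in the other Ctrl libraries. Tgfb2 was at 0.533 CPM in Ctrl replicate 2, against 0.168 to 0.208 CPM in the other Ctrl libraries, which is 9 counts against 3 to 5.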

How the results depend on the processing

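The 7 called genes kept their direction and their call under every alternative run, while Ccnd1 was called in 2 of them, Cdkn2b in 1 and Ccnd2 in 0. Of 160 values for the 10 genes under alternatives, 154 kept their direction and side of the threshold. With no filter on low counts, 2 of the 10 genes were called lower in place of 1, because Ccnd1 was at -0.21 and called. With library size scaling Ccnd2 was at 0.056 and not called, and Cdkn2b was at 0.26 and called. Over the fits that leave out 1 library, the number called lower was 1 to 2, Ccnd1 ranged over -0.30 to -0.064, Ccnd2 over -0.20 to 0.037 (without Ctrl replicate 1) and Cdkn2b over -0.017 (without Ctrl replicate 4) to 0.10. The cause was not tested. Over all genes, 8299 to 9716 were called under the alternatives against 8907. For other named genes, 602 of 608 values kept direction and call, and 442 of 480 list counts stayed within 1.5 times. Same-numbered libraries of the groups correlated at 0.05 to 0.28 in their deviations, and the best match was the same number for 2 of 4. These values cannot decide whether the numbers pair the cultures, and no label says that they do. With the replicate block 9174 genes were called and the same 7 of the 10. Depth limits Cdkn1c, Cdkn2c, Ccne1 and Ccne2 in Ctrl, at 26 to 120 counts per library.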
